A study of Homo sapiens with 8 samples.

Results

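The mitosis genes described here are 42 named genes of the machinery that divides a cell, followed in Rh41 cells in which the histone methyltransferase G9a was knocked down. They were chosen by symbol from 60234 genes in the deposited table, and each symbol had 1 gene identifier there. All 42 had a mean of at least 1 CPM (reads of a gene scaled to an equal total in every library) and were tested among 15092 such genes. Rh41, an established line, was grown from alveolar rhabdomyosarcoma, a tumour with features of skeletal muscle, and its cells carry PAX3-FOXO1, a fusion of the genes of 2 transcription factors. By their labels, the 4 control libraries and 4 siG9a libraries all came from this single line. Cell type markers, given below, differed widely between replicate numbers, and whether the libraries held 1 uniform cell population was not tested. The series title names an shG9a experiment while the sample labels say siG9a, and the label is kept here. What the control cells received, the time after knockdown and the reagent dose are not given in the sources used here.

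Mitosis is driven by CDK1 bound to cyclin B, which the phosphatases of the CDC25 family activate and the transcription factor FOXM1 supplies. Polo-like and Aurora kinases then build the spindle and correct its attachments, a checkpoint holds the anaphase-promoting complex until every chromosome is attached, and motors with midzone proteins finish the separation. Messages of these genes peak late in the cycle, so in bulk RNA they follow the share of dividing cells. For the values below, fewer cells in division and less transcript per cell cannot be told apart.

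The libraries held between 1458825 and 1938665 recovered reads, of which 11166 to 16315 per library fell on the 42 genes. No 2 libraries of the same group were the same within sampling noise: their chi-square over genes, divided by its degrees of freedom, was at least 6.67 and at most 33.03. EHMT2, which encodes G9a, measured 57.6, 68.1, 87.3 and 88.3 CPM in control replicates 1 to 4 and 19.6, 35.1, 33.1 and 58.5 CPM in siG9a. It was lower in 4 of 4 pairs of equal number, although the groups overlapped, and its log2 change was −1.10 (limma, adjusted p = 0.191 without and 0.000472 with the replicate number in the fit). The replicate 3 libraries stood apart in both groups, and those of replicate 1 in 1 marker list. In replicate 3 the summed CPM of 9 rhabdomyosarcoma markers was 248 in control and 226 in siG9a, against 838 to 1623 in the other 6 libraries, and 8 of the 9 were tested, MYF5 being at 0 throughout. Of 10 neural and kidney-epithelial markers, 7 were tested and GFAP was at 0. The sum was 9670 and 8976 CPM in replicate 3 and 206 and 229 CPM in replicate 1. In replicates 2 and 4 it was 1843 to 2969 CPM, and most of the sum was NEFM. NEFL, KRT8 and KRT18 were also highest in replicate 3 of both groups, and INA in that of siG9a alone. CDH1, PAX2, EPCAM and PAX8 were not highest there in either group. Fibroblast markers (5 of 9 tested, POSTN at 0) summed to 118 and 51.95 CPM in replicate 3 and to 146 to 409 elsewhere, and blood cell markers (2 of 6 tested) to 1.56 to 9.71 CPM in all libraries. Mitochondrial genes took 6.01 ± 2.16% of reads in control and 9.21 ± 4.02% in siG9a (SD, n = 4). The part of these differences in the results below was not tested. Values without the replicate 3 libraries are given where the calls change.

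As a group, the mitosis genes differed little in level between control and siG9a libraries. Their summed CPM was 7790 ± 490.1 in control and 8149 ± 902 after knockdown (SD, n = 4), and without TOP2A 4583 ± 361 and 4825 ± 342. The median log2 change of the 42 genes was 0.09, beside 0.01 for all genes tested, with 27 genes higher and 15 lower. No member had a log2 change of 1 or more in size, which 7.16% of all genes tested reached. For 30 of the 42 members it was under 0.5, as it was for 67.8% of all genes tested. In limma without a term for the replicate number, 0 of 42 passed an adjusted p of 0.05, as did 0 of 15092 genes (0%), and 8 members had an unadjusted p under 0.05, beside 12.5% of all genes tested. edgeR on recovered reads without that term called 0 members and DESeq2 called 1, BIRC5, beside 0% and 1.93% of all genes.

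Libraries of equal number were next treated as a block. Correlated deviations from the group means single out this pairing for numbers 1 (0.50) and 3 (0.67), but not for 2 (0.10) and 4 (0.13). With the block limma called 7 of 42 members (16.7%), where it called 11.4% of all genes tested. KIF2C, AURKB, PLK1 and INCENP rose (4 genes, beside 4.86% of all genes tested), and BIRC5, CENPE and HMMR fell (3 genes, beside 6.52%). "Rose" and "fell" below refer to this fit, and no such limma call held in the main fit without the block. With array weights, an alternative given below, limma without the block called 1 member, lower in siG9a. Adjusted p-values from limma are called blocked and unblocked for the fits with and without that term. edgeR with the block called 8 members, the same 7 and KIF11, beside 11.3% of all genes. DESeq2 with the block called 3, BIRC5, KIF2C and CENPE, beside 6.42% of all genes. Leaving out both replicate 3 libraries left 4 calls, BIRC5, KIF2C, AURKB and HMMR. Without the pair of replicate 1 there were 2 calls, and without that of replicate 2 there were 3. limma without a trend in its prior variance called 0 members and 0 of 15092 genes.

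**Figure D1:**
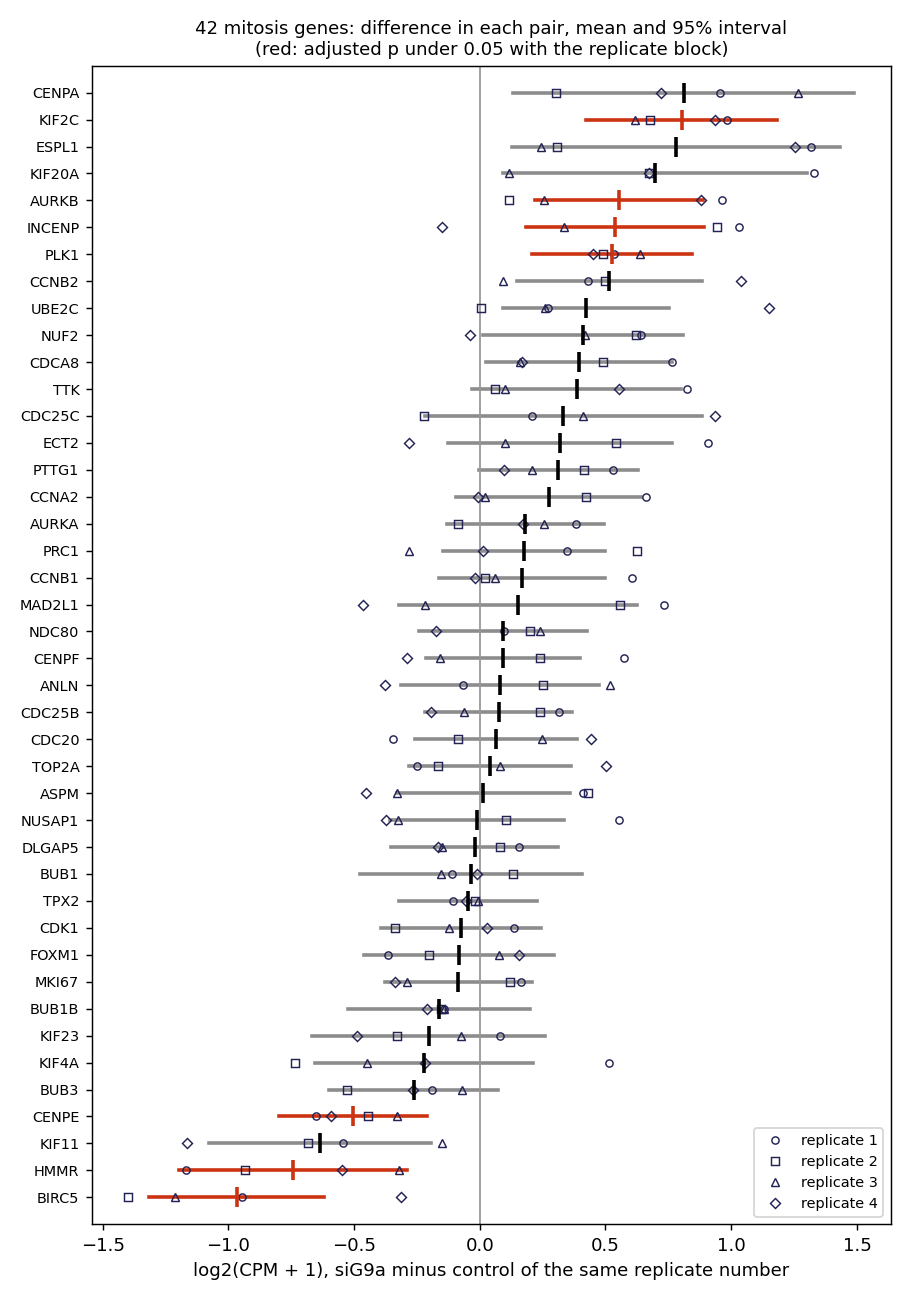
Difference of log2(CPM + 1) between siG9a and control of the same replicate number for each of the 42 genes (open symbols, 1 per pair), with the mean (tick) and its 95% interval from the fit with the replicate block (bar). The 7 red genes passed the adjusted threshold, and most other means lie within 0.5 of 0.

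The levels spanned a wide range. QuantSeq libraries read each transcript near its 3′ end, so CPM needs no correction for length when genes are compared. The highest member was TOP2A, the topoisomerase that untangles sister chromatids and the target of etoposide. TOP2A measured 3327, 3842, 2611 and 3045 CPM in control replicates 1 to 4 and 2799.9, 3420.3, 2762 and 4313 CPM in siG9a replicates 1 to 4 (log2 change 0.04, 95% interval −0.28 to 0.36 with the block). The next was CENPF, a kinetochore protein that binds microtubules, at 337, 385, 502 and 646 CPM in control and 501, 455, 449 and 529 CPM in siG9a. In both genes the 4 siG9a values lay within or around the control values. The lowest member was CENPA, the histone H3 variant that marks centromeres, at 6.21 ± 1.91 CPM in the controls and 11.5 ± 2.63 CPM after knockdown (SD, n = 4). Its smallest count was 6 reads in control replicate 3, for which a 95% Wilson interval runs from 1.69 to 8.05 CPM and covers counting error only.

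**Figure D2:**
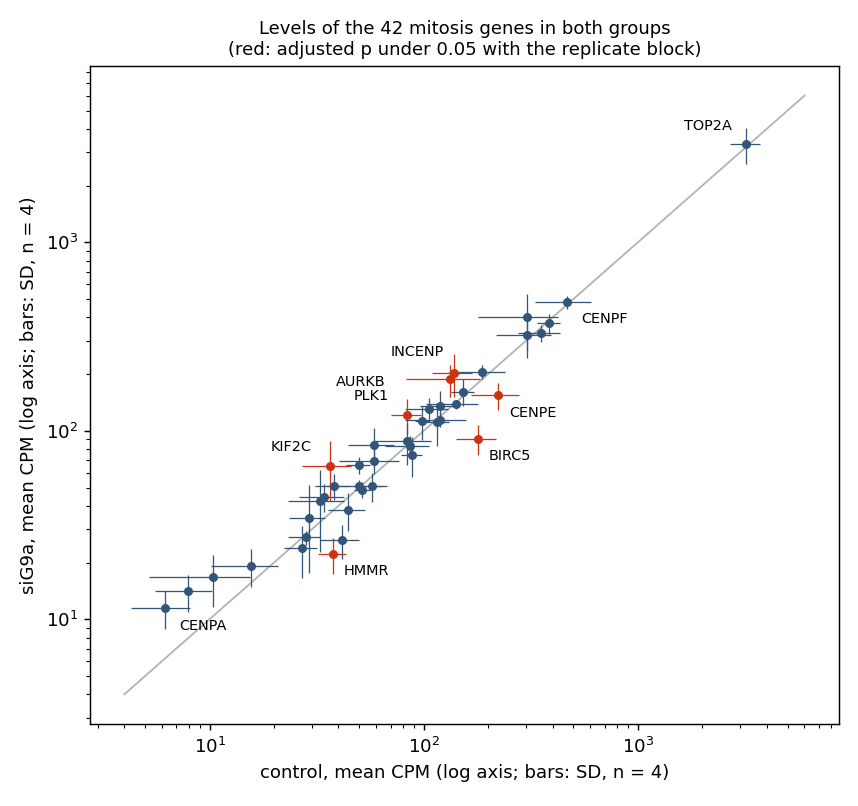
Mean CPM of each of the 42 genes in siG9a against control (both axes logarithmic; bars are SD over 4 libraries; the line marks equal levels). TOP2A, at means of 3206 and 3324 CPM, lies close to the line, BIRC5, CENPE and HMMR lie below it, and KIF2C, PLK1, AURKB and INCENP above it.

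Of the 7 called genes, 3 encode subunits of the chromosomal passenger complex, and they did not all move in 1 direction. This complex of the kinase Aurora B (AURKB), the scaffold INCENP, borealin (CDCA8) and survivin (BIRC5) sits at centromeres and later at the midzone, where it releases faulty attachments and times cytokinesis. BIRC5, which also inhibits apoptosis, measured 184, 179, 225 and 131 CPM in control replicates 1 to 4 and 94.9, 67.2, 96.5 and 105.5 CPM in siG9a. All 4 siG9a values were below all 4 control values. BIRC5 fell to 50.7% of its control mean, a log2 change of −0.97 ± 0.17 (SE) (limma, adjusted p = 0.000469 blocked and 0.126 unblocked). The pair of replicate 4 was the closest, and there the 95% Wilson intervals, for counting error only, overlapped (116 to 149 CPM in control and 91.3 to 121.9 CPM in siG9a). In pairs 1, 2 and 3 they did not overlap. With the block the call held in 13 of 14 alternatives, where the adjusted p by limma, edgeR or DESeq2 ran from 0.000107 to 0.108.

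AURKB measured 91.8, 142, 200.5 and 96.6 CPM in control replicates 1 to 4 and 180.02, 154, 239.8 and 178 CPM in siG9a. It was higher in 4 of 4 pairs, but control replicate 3 was above 3 of the siG9a libraries, so the groups overlapped. AURKB rose by a log2 change of 0.55 ± 0.16 (SE) (limma, adjusted p = 0.0261 blocked and 0.420 unblocked), a call lost without the pair of replicate 1 or that of replicate 4. INCENP measured 101.5, 143, 137 and 174 CPM in control and 208, 277, 173 and 157 CPM in siG9a, higher in 3 of 4 pairs. It rose by 0.54 ± 0.17 (SE) on the log2 scale (limma, adjusted p = 0.0423 blocked and 0.379 unblocked), and this call was lost in 7 of 14 alternatives with the block, those without pair 1, 2 or 3 among them. CDCA8 was at 43.9 to 56.6 CPM in control and 60.5 to 75.3 CPM in siG9a, with no overlap, but did not pass (log2 change 0.40 ± 0.18, limma, adjusted p = 0.165 blocked and 0.460 unblocked). Thus 1 of the 4 subunits fell, 2 rose and 1 had higher values without a call.

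**Figure D3:**
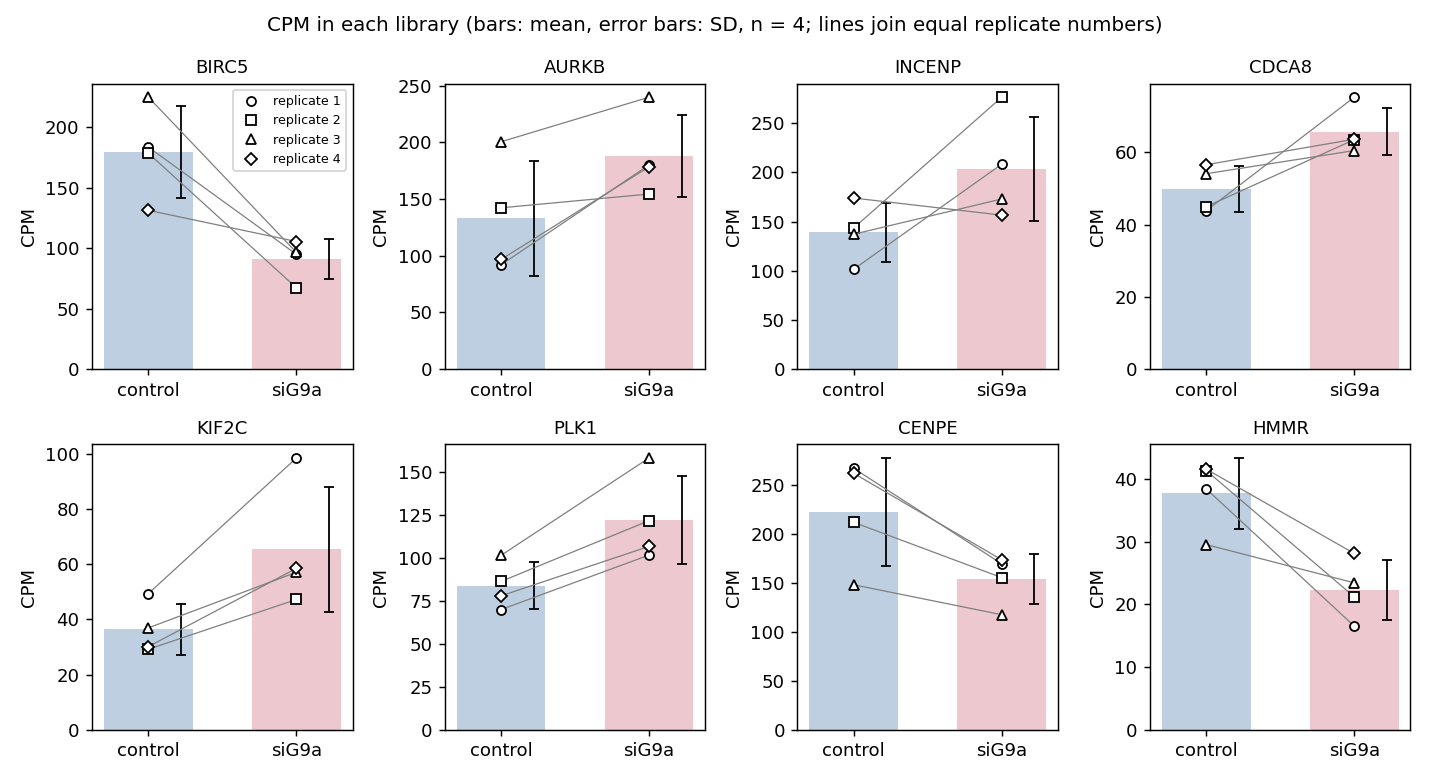
CPM of 8 mitosis genes in each library (symbols by replicate number, lines joining equal numbers; bars are group means and error bars SD, n = 4). The BIRC5, CENPE and HMMR lines slope down in every pair, AURKB, CDCA8, KIF2C and PLK1 slope up in every pair, and INCENP slopes up in 3 of 4.

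Among the other mitotic kinases and their cofactors, PLK1 changed. PLK1, which matures centrosomes and opens the way into mitosis, measured 69.9, 86.3, 101.5 and 77.9 CPM in control and 101.6, 121.7, 158 and 106.7 CPM in siG9a. Each siG9a value was above each control value, the closest being 101.6 against 101.5 CPM. PLK1 rose by a log2 change of 0.53 ± 0.15 (SE) (limma, adjusted p = 0.0263 blocked and 0.350 unblocked), a call lost without pair 1, 2 or 3. Its pair differences lay between 0.45 and 0.64, the narrowest spread of the 7 called genes. Aurora A (AURKA), the spindle-pole kinase, was at 119 ± 22.4 CPM in the controls and 135 ± 28.3 CPM after knockdown (SD, n = 4), and TPX2, its activator, at 384 ± 47.03 and 372 ± 44.8 CPM. Neither passed in either fit.

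KIF2C and HMMR were the called genes among the spindle motors and microtubule proteins. KIF2C, also called MCAK, is a kinesin that takes microtubules apart at centromeres and is a substrate of Aurora B. It measured 49.4, 29.2, 36.9 and 30.1 CPM in control replicates 1 to 4 and 98.5, 47.2, 57.1 and 58.5 CPM in siG9a. KIF2C rose by a log2 change of 0.80 ± 0.18 (SE), higher in 4 of 4 pairs (limma, adjusted p = 0.00514 blocked and 0.272 unblocked). Only siG9a replicate 2 reached into the control range, below control replicate 1. HMMR, a spindle-pole protein that binds TPX2, measured 38.4, 41.3, 29.5 and 41.5 CPM in control and 16.5, 21.2, 23.4 and 28.1 CPM in siG9a, with no overlap. HMMR fell by 0.74 on the log2 scale (SE 0.22) (limma, adjusted p = 0.0283 blocked and 0.268 unblocked), a call lost without pair 1 or 2.

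The other 5 genes of that role did not pass in limma. KIF11, the motor that pushes spindle poles apart and is inhibited by monastrol, was at 41.5 ± 8.64 CPM in the controls and 26.3 ± 5.32 CPM after knockdown (SD, n = 4). The highest siG9a value, 34.26 CPM, was just below the lowest control value, 34.27 CPM, and limma gave an adjusted p of 0.0550 blocked and 0.327 unblocked. edgeR with the block called it at an adjusted p of 0.0464. KIF4A, a chromosome-bound kinesin, had a log2 change of −0.22, and ASPM, NUSAP1 and DLGAP5, which organise spindle microtubules, had changes of 0.01, −0.01 and −0.02. The sign of the last 3 turned under several alternatives.

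At the centromere and kinetochore, 1 of 5 genes passed. CENPE, the kinesin that carries chromosomes to the spindle equator, measured 267, 212, 148 and 262 CPM in control replicates 1 to 4 and 170, 156, 118 and 174 CPM in siG9a. It was lower in 4 of 4 pairs, yet control replicate 3 was below 3 siG9a libraries and the groups overlapped. CENPE fell by 0.50 on the log2 scale (SE 0.14) (limma, adjusted p = 0.0219 blocked and 0.401 unblocked), a call lost without pair 1, 2 or 3. The CENPA values given above did not overlap between the groups, and the log2 change was 0.81 ± 0.33 (SE) (limma, adjusted p = 0.115 blocked and 0.364 unblocked). NDC80 and NUF2, partners in the complex that grips microtubules, had log2 changes of 0.09 and 0.41, and CENPF had 0.09. None of these 3 passed in either fit.

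No gene of the cyclin and CDK1 group was called, with 5 of 7 values higher and 2 lower. CDK1, the mitotic kinase itself, was at 115.6 ± 16.02 CPM in the controls and 111.7 ± 28.2 CPM after knockdown (SD, n = 4). Its 95% interval with the block ran from −0.39 to 0.24 on the log2 scale. CCNB1 measured 98.7 ± 7.33 and 112.4 ± 23.1 CPM, and CCNB2, the second B-type cyclin, 58.4 ± 14.3 and 83.8 ± 19.4 CPM (SD, n = 4). CCNB2 was higher in 4 of 4 pairs with a log2 change of 0.52 ± 0.18 (SE), and limma gave it an adjusted p of 0.0626 blocked and 0.420 unblocked. CCNA2, CDC25B and CDC25C had log2 changes of 0.27, 0.07 and 0.33. FOXM1, which activates transcription of many of these genes, was at 51.7 ± 4.42 CPM in the controls and 48.7 ± 4.61 CPM after knockdown (SD, n = 4).

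The spindle checkpoint genes, which delay anaphase, also gave 0 calls among 5. Their log2 changes ran from −0.26 for BUB3 to 0.38 for TTK, the kinase MPS1, with BUB1 at −0.04, BUB1B at −0.16 and MAD2L1 at 0.15. BUB3 and BUB1B were lower in 4 of 4 pairs and TTK higher in 4 of 4, and limma with the block left them at an adjusted p of 0.333, 0.617 and 0.237. All 4 genes of anaphase entry and exit had higher means in siG9a, and 0 passed. UBE2C, the ubiquitin-conjugating enzyme of the anaphase-promoting complex, was at 303 ± 123 CPM in the controls and 400.2 ± 135 CPM after knockdown (SD, n = 4). The adjusted p in limma was 0.0891 blocked and 0.652 unblocked. ESPL1 (separase, which cuts cohesin) went from 7.90 ± 2.34 to 14.1 ± 3.12 CPM without overlap (SD, n = 4; limma, blocked, adjusted p = 0.115). PTTG1 (securin, the inhibitor of separase) had a log2 change of 0.31 and CDC20, which activates the complex, of 0.06.

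Of the 5 midzone and cytokinesis genes, 0 passed. KIF20A, a midzone kinesin, had the largest change, from 10.4 ± 5.15 to 16.8 ± 5.16 CPM (SD, n = 4; log2 change 0.70 ± 0.29 (SE), limma, blocked, adjusted p = 0.131). ECT2, which activates RhoA for the cleavage furrow, PRC1, which bundles the midzone, and ANLN, which anchors the contractile ring, had log2 changes of 0.32, 0.18 and 0.08, and the motor KIF23 of −0.20. MKI67, the coat protein of mitotic chromosomes detected by the Ki-67 antibody, was at 354 ± 79.5 CPM in the controls and 329 ± 32.97 CPM after knockdown (SD, n = 4). Its log2 change was −0.09, with a 95% interval from −0.38 to 0.21 with the block.

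Seen pair by pair, the group was not shifted alike in every replicate number. In pair 1, 30 of 42 genes were higher in siG9a with a median difference of 0.37 on the log2 scale, and in pair 2, 27 were higher with a median of 0.12. Pair 3 had 23 higher and a median of 0.07, and pair 4 had 18 higher and a median of −0.03. The median over all genes tested was 0.07, −0.004, −0.009 and −0.03 in the same pairs. Of the 42 genes, 11 were higher in 4 of 4 pairs, beside 14.9% of all genes tested. Another 7 were lower in 4 of 4, beside 15.3%, and 30.2% of all genes tested kept 1 direction. The siG9a values lay wholly above the control values for 4 members (PLK1, CDCA8, ESPL1 and CENPA) and wholly below for 3 (BIRC5, HMMR and KIF11), beside 7.32% of all genes, 3.88% above and 3.45% below. Without the replicate 3 libraries the 2 groups of 3 did not overlap for 12 members, 7 above and 5 below, beside 22% of all genes.

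Further genes of mitosis came from lists of 108 genes in 7 roles, of which 107 were tested and 16 (15.0%) were called with the block, 12 higher and 4 lower, with a median log2 change of 0.16. Of all genes tested, 11.4% were called, 4.86% higher and 6.52% lower. Without the block 0 of 107 passed in limma and 15 had an unadjusted p under 0.05, beside 12.5% of all genes. In the kinetochore list 4 of 25 rose and 0 fell. SKA2, of the complex that tracks microtubule ends, went from 67.8 ± 31.01 to 186 ± 36.5 CPM (SD, n = 4), which is 1.55 ± 0.18 (SE) in log2 (limma, adjusted p = 4.36e-06 blocked and 0.109 unblocked). OIP5, which helps to load CENPA, and DSN1, of the kinetochore's MIS12 complex, rose by 1.19 and 0.77 on the log2 scale. In the spindle and centrosome list 4 of 19 rose and 0 fell, among them STIL (1.01), which starts centriole assembly, KIFC1 (0.64) and NUMA1 (0.51), which focus spindle poles. Of 15 tested subunits and cofactors of the anaphase-promoting complex, CDC27 fell by 0.77 on the log2 scale and was the single call.

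NIPBL, which loads cohesin, and PDS5B, which regulates it, fell by 0.61 and 0.60, the 2 calls among 14 cohesin genes, and NCAPG2 rose by 0.81, the single call among 8 condensin subunits. CDC25A, a phosphatase that activates CDKs, rose by 0.89 and the kinase NEK6 fell by 0.76 on the log2 scale, in a list of 13. Of 13 regulators in the MuvB, DREAM and MYB list, which hold these promoters silent or active, E2F4 and its partner TFDP1 rose by 0.90 and 0.60 on the log2 scale. None of the genes named in these lists passed limma without the block.

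**Figure D4:**
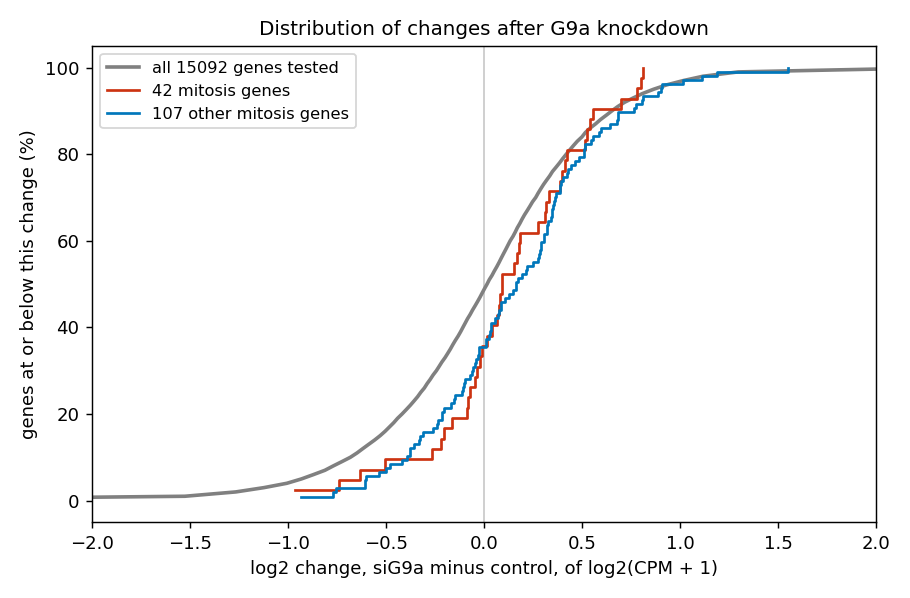
Cumulative share of genes against their log2 change for the 42 mitosis genes, 107 other mitosis genes and all 15092 genes tested (axis cut at −2 and 2). The mitosis genes span −0.97 to 0.81, with a median of 0.09, and the other mitosis genes have a median of 0.16.

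Many promoters of this group carry the cell cycle genes homology region, a short element bound by the MuvB complexes, next to CCAAT boxes bound by NF-Y. RefSeq promoter windows (build GRCh38.p14, 300 bases around a start, most of them before it) were matched for 35 of the 42 genes, in 45 windows. The letters TTTGAA or TTCGAA, on either strand, occurred in 31 of the 45 windows (68.9%) and in 16.4% of 35116 windows of all genes. CCAAT, on either strand, occurred in 34 windows (75.6%) and in 34.6% of all, and both together in 26 windows (57.8%) and in 6.38% of all. These are matches of letters and not measured binding. AURKA, BIRC5, BUB3, FOXM1, TPX2, TTK and UBE2C had no entry. Windows are printed for those of the 3 most abundant members and the 3 members with the smallest p in the blocked fit that had one. TOP2A and CENPF, which did not pass in either fit, hold both elements, and KIF2C, which rose, and CENPE, which fell, hold neither as spelled. For genes without a printed window, only the first listed window was read, and since 35 genes had 45 windows, a further window may differ. In the window read, PLK1, INCENP and HMMR, which were called, hold both and AURKB holds CCAAT alone. CDC25B and CDC25C, which were not called, hold neither in the window read. Capitals mark the matches, which did not overlap each other, and the bases run 5′ to 3′ along the gene's strand.
TOP2A, chr17:40417847-40418146, minus strand: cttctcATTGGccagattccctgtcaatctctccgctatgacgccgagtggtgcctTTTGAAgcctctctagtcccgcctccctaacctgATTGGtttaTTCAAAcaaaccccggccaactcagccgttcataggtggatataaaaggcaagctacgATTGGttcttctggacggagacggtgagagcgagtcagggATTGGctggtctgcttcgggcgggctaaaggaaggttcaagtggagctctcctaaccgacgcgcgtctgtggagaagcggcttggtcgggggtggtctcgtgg
CENPF, chr1:214602945-214603244, plus strand: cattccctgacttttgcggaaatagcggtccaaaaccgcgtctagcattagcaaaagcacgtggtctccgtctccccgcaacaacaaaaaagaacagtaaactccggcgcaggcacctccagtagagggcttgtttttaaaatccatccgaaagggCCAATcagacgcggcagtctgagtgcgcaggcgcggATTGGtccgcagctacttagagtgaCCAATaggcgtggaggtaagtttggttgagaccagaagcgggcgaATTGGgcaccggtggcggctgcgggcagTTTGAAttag
KIF2C, chr1:44739587-44739886, plus strand: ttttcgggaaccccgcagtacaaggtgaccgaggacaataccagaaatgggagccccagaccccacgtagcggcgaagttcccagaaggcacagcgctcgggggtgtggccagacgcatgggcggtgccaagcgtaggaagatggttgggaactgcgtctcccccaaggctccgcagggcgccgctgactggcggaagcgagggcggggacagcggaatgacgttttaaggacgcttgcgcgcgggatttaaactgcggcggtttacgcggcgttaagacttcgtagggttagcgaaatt
CENPE, chr4:103198294-103198593, minus strand: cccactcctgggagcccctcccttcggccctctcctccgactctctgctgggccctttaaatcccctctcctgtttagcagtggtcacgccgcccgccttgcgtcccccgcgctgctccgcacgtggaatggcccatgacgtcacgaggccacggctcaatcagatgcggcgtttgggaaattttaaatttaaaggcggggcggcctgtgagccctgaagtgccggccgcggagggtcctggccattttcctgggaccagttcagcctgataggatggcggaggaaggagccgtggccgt

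In GENCODE release 29, 23 of the 42 genes overlap the body of another gene. For 3 of them, CCNA2, FOXM1 and KIF20A, a gene with a mean of at least 1 CPM reaches the last 1000 bases, and since the use of strand in counting is not stated, their values are uncertain in that respect. Of the 7 called genes, BIRC5, AURKB, INCENP and CENPE overlap no annotated gene there, HMMR overlaps HMMR-AS1, PLK1 overlaps ERN2 and AC008870.3, and KIF2C overlaps AL592166.1. Pseudogenes named for a member are listed for 5 genes, the highest at a mean of 4.00 CPM, for CDC20.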

How the data were processed

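RNA of Rh41 cells was read in 4 control and 4 siG9a libraries by QuantSeq 3′ sequencing, per the labels' protocols. The submitters' processing notes name FastQC 0.11.8, Trim Galore, STAR 2.5.0a, HTSeq 0.8.0 and edgeR 3.28 with GRCh38 and hg19, without roles, so the build used is not settled here. The authors deposited CPM to 2 decimals. In each library 100% of values were whole multiples of 1 read (within 0.006 CPM), which gave back the read counts behind the deposited CPM, and 3 reads were worth 1.55 to 2.06 CPM. Molecular identifiers are not stated, and nothing in the labels says whether replicates were separate cultures beyond calling them biological, so p-values measure the spread between these libraries.

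Genes whose CPM averaged 1 or more over all 8 libraries were tested with limma 3.58.1 (R 4.3.3) on log2(CPM + 1), with a trended prior, two-sided, and Benjamini-Hochberg adjustment over all of them at 0.05. Fold changes are on that scale, which understates those of low genes. The main fit had the group as its only term. Pairing comes from the numbers in the sample titles. Deviations from group means correlated, across genes, by 0.50, 0.10, 0.67 and 0.13 for numbers 1 to 4 (0.1038 for number 2, just over the limit of 0.1 set for it), so results with the number as a block stand beside the main ones. Numbers 2 and 4 were not singled out: control 2 correlated more with siG9a 4 (0.1439) than with siG9a 2, and siG9a 4 more with control 2 than with control 4 (0.1304). The limma calls of members rest on this block, apart from 1 call with array weights without it. edgeR 4.0.16 (quasi-likelihood) and DESeq2 1.42.0 on recovered reads, other pseudocounts, filters and scalings, and left-out libraries were alternatives. The fits were tested on simulated reads in which libraries of equal number were paired by construction. That test cannot show whether they are paired here. Members and lists were chosen with earlier results of these data known. All 42 members may be named, in other lists at most the 3 called genes with the smallest p with the block. Values per library are given for the 6 members with the smallest p with the block and the 2 most abundant, and also for INCENP, chosen after its values were seen.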

Additional observations from a re-analysis of the deposited data

Results flagged for a closer look

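In groups of 4 libraries, the highest or lowest value was compared with the range by Dixon's ratio. Of 98 groups examined, 8 passed the 95% critical value. By chance about 1 in 20 would, or 4.9, and 4 of the 8 were replicate 3 libraries. The summed rhabdomyosarcoma markers were at 248 CPM in control replicate 3, against 1441 to 1623 in the remaining controls. AURKA was at 85.5 CPM in control replicate 3 (others 128 to 132). In siG9a replicate 3, CDC25B was at 204 CPM (others 349.7 to 368) and KIF11 at 34.3 CPM (others 23.2 to 24.2). In siG9a replicate 2, PTTG1 was at 101.7 CPM (others 136 to 142) and NUSAP1 at 99.3 CPM (others 118 to 121). KIF23 was at 20.05 CPM in control replicate 2 (others 28.6 to 30.2), and ECT2 at 71.7 CPM in siG9a replicate 1 (others 29.7 to 34.4).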

How the results depend on the processing

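Without the block, the number of members called was 0 in limma and became 1 with array weights, 1 with DESeq2 and 7 with the replicate block. It stayed at 0 when each library, or both replicate 3 libraries, were left out. With the block it was 7, and became 2 with no filter, 0 without a trended prior, 3 with DESeq2 and 0 with no replicate block. It was 9 with quantile normalization (6 higher and 3 lower), 8 with median-ratio scaling, 8 with edgeR, 6 with a pseudocount of 0.1, and 7 with a pseudocount of 5, a minimum of 5 CPM or array weights. It ran from 2 to 6 when 1 pair was left out. For all genes the block moved the count of calls from 0 to 1717, and leaving out 1 pair gave 653 to 1392. The members without overlap between groups went from 7 to 12 when both replicate 3 libraries were left out, an alternative chosen after seeing the data. The median log2 change of the 42 genes stayed above 0 in all alternatives run. A gene at 10 CPM rests on fewer than 20 reads, which limits CENPA, ESPL1 and KIF20A. The cause of these shifts was not tested. Leaving out libraries changed both the number of samples and which libraries were used.

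Direction held in all alternatives without the block, and with the block as its own alternative, for 28 of the 42 members, the 7 called genes among them. The other 14 had log2 changes of at most 0.15 in size. With quantile normalization TPX2 turned to 0.026, NUSAP1 to 0.031 and DLGAP5 to 0.010. Array weights turned BUB1 to 0.034, NUSAP1 to 0.069 and DLGAP5 to 0.053, and ASPM turned to −0.017 with edgeR and −0.026 with DESeq2. Without both replicate 3 libraries BUB1 was at 0.0035, NUSAP1 at 0.094, DLGAP5 at 0.024 and ANLN at −0.064. When single libraries were left out, CDK1 ran from −0.19 to 0.052, CDC25B from −0.083 to 0.28, TPX2 from −0.12 to 0.018 and BUB1 from −0.12 to 0.054. MAD2L1 ran from −0.13 to 0.37, CDC20 from −0.016 to 0.19, CENPF from −0.051 to 0.26 and NDC80 from −0.12 to 0.26. NUSAP1 ran from −0.17 to 0.14, ASPM from −0.10 to 0.15, DLGAP5 from −0.16 to 0.097, ANLN from −0.093 to 0.22, TOP2A from −0.092 to 0.13 and MKI67 from −0.20 to 0.049.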

Other observations

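Genes that act before mitosis were looked at beside it. Of 35 DNA replication genes, 6 were called with the block (17.1%, beside 11.4% of all genes tested). Higher in siG9a were 4 and lower 2, beside 4.86% and 6.52% of all genes. Without the block 0 of the 35 passed in limma, and the median log2 change of the list was 0.08. FEN1, which trims Okazaki fragments, rose from 58.4 ± 8.40 to 113.7 ± 20.6 CPM, and TK1, the thymidine kinase of dividing cells, fell from 106.97 ± 13.2 to 59.6 ± 8.94 CPM (SD, n = 4), both without overlap. PRIM1, a primase subunit, rose from 4.72 ± 1.54 to 13.5 ± 4.66 CPM (SD, n = 4).

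Of 19 G1 cyclins, CDKs and inhibitors, 7 were called with the block (36.8%, beside 11.4% of all genes tested). Higher in siG9a were 5 and lower 2, beside 4.86% and 6.52% of all genes. Without the block 0 of the 19 passed in limma, and the median log2 change of the list was 0.24. CCND2 (cyclin D2) fell from 475 ± 180 to 141 ± 24.4 CPM (SD, n = 4), which is −1.67 ± 0.16 (SE) in log2 (limma, adjusted p = 3.13e-07 blocked and 0.0898 unblocked). CDK6, a partner of D cyclins, rose by 0.86 and CDKN1B, the inhibitor p27, by 1.42 on the log2 scale, and neither passed limma without the block. Whether these lists differ from the mitosis genes was not tested.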
